A study of Mus musculus with 8 samples.

Results

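Vps35 is the scaffold of retromer, and the rows analysed here are Vps35 and 9 partner genes of the same sorting machinery, picked by name: Vps26a, Vps26b, Vps29, Snx1, Snx2, Snx3, Snx5, Snx6 and Snx27. All 10 members were found among the 53921 gene rows of the count table, each in 1 row, and all 10 had counts high enough to be tested. Vps35 was singled out because its mRNA was known to be lower in the shGrhl3 libraries of this same table, so its values are a description and carry no test here. The question was whether its partners were lower as well.

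The series measured RNA in mouse induced cardiomyocytes, fibroblasts pushed towards a heart muscle identity with transcription factors, labelled Induced cardiomyocytes(Neo) and collected on day 5. The hairpin group received MGT, in this field the mix of Mef2c, Gata4 and Tbx5, together with shGrhl3, a short hairpin RNA against the transcription factor gene Grhl3 (2 RNA-seq libraries). Its control received MGT together with the hairpin labelled shNT (2 RNA-seq libraries), so all 4 libraries carry MGT. The labels give no strain, age or sex for the cells and do not state whether replicate libraries stem from different cultures. The p-values therefore weigh the difference between groups only against the spread of these libraries within a group, and that spread may be technical. The series also holds 4 CUT&Tag samples for H3K27ac, not analysed here.

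Retromer is a trimer of VPS35, VPS29 and 1 of the interchangeable arms VPS26A and VPS26B that sits on endosomes and rescues membrane proteins from degradation in lysosomes. Sorting nexins supply the membrane contact: SNX1 or SNX2 pairs with SNX5 or SNX6 through curved BAR domains that shape transport tubules, while SNX3 and SNX27 bind cargo. VPS35 holds the trimer together, and in cultured cells SNX27 with retromer returns receptors such as the beta-2 adrenergic receptor to the cell surface.

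Library totals ran from 18608893 to 19822541 counts in shGrhl3 and from 16102839 to 19256438 in shNT, so a single count was worth 0.0499 to 0.0630 CPM, the depth-scaled count used below (library sizes adjusted by TMM, edgeR's trimmed-mean factors). Grhl3 had 11 and 19 counts in shGrhl3 against 31 and 14 in shNT, libraries that overlap (log2 fold change -0.69, SE 0.56, adjusted p = 0.362 in edgeR's quasi-likelihood test), so the counts do not check the hairpin. Of the MGT genes, Tbx5 (log2 fold change -0.31, edgeR adjusted p = 0.00329) and Gata4 (-0.23, edgeR adjusted p = 0.032) were lower in shGrhl3. Mef2c was lower without overlap but did not pass (-0.37, edgeR adjusted p = 0.196). Cardiomyocyte markers were present in every library, with a summed level of 4526 to 4658 CPM over 8 genes in shGrhl3 and 3815 to 3900 CPM in shNT. Most of that sum was Tnnt2, at 3208 CPM in shGrhl3 and 3214 CPM in shNT. Of the 8 genes, 4 were higher (Myh6 12.2-fold, Tnni3 6.00-fold, Mybpc3 2.17-fold and Actc1 1.97-fold) and 1, Nppa, was lower. Of 8 cardiac fibroblast markers, with a summed level of 11401 to 12281 CPM in shGrhl3 and 10343 to 10523 CPM in shNT, 4 were lower (Pdgfra, Tcf21, Ddr2 and Dcn) and 1, Col1a1, was higher. The rRNA row Rn18s took 0.0959% and 0.156% of counts in shGrhl3 and 0.573% and 2.00% in shNT. Leukocyte markers also differed between the arms: the summed level of 12 genes was 120.5 and 150.4 CPM in shGrhl3 and 657 and 906 CPM in shNT, and of 9 tested, 8 were lower and 1, Csf1r, was higher. None of the 12 was at 0 in all libraries, while C1qb was at 0 in both shGrhl3 libraries. The part of these shifts (MGT genes, and cardiomyocyte, fibroblast and leukocyte markers) in the results below was not tested. In bulk RNA, fewer cells of a type and less RNA per cell cannot be told apart.

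Vps35 (chromosome 8, 85260385 to 85299517 on GRCm38.p6, the RefSeq assembly used for all positions here) had 115 and 112 CPM in the shGrhl3 libraries, against 338 and 324 CPM in the shNT libraries. Its mean was 113 ± 2.08 CPM in shGrhl3 and 331 ± 9.56 CPM in shNT (SD, n = 2 each), which is 34.2% of the shNT level and a log2 fold change of -1.55. Both shGrhl3 libraries lay far below both shNT libraries, and the libraries of a group lay close together. Of 15324 genes tested, 2.03% had a log2 fold change as low as this or lower. Leaving out any 1 library moved the value only between -1.57 and -1.51.

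Of the 9 partners, 2 were lower, 0 were higher and 7 did not pass the threshold (edgeR's quasi-likelihood test, adjusted p under 0.05, adjusted over all genes). Snx1 and Vps26a were the lower ones. They are 22.2% of the partners, beside 17.9% of all genes tested called lower and 17.1% called higher, so the share of partners that fell is near the background. In either direction 35% of all genes tested were called. Among the 4500 genes with a mean of at least 50 CPM, as 8 of the 9 partners have, 24.5% were lower and 24.4% were higher. The median log2 fold change of the 9 partners was -0.00068, against -0.0093 over all genes tested. The groups did not overlap for 3 partners that were lower and 2 that were higher in shGrhl3, where 33.7% of all genes tested were lower without overlap and 32.8% higher.

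**Figure D1:**
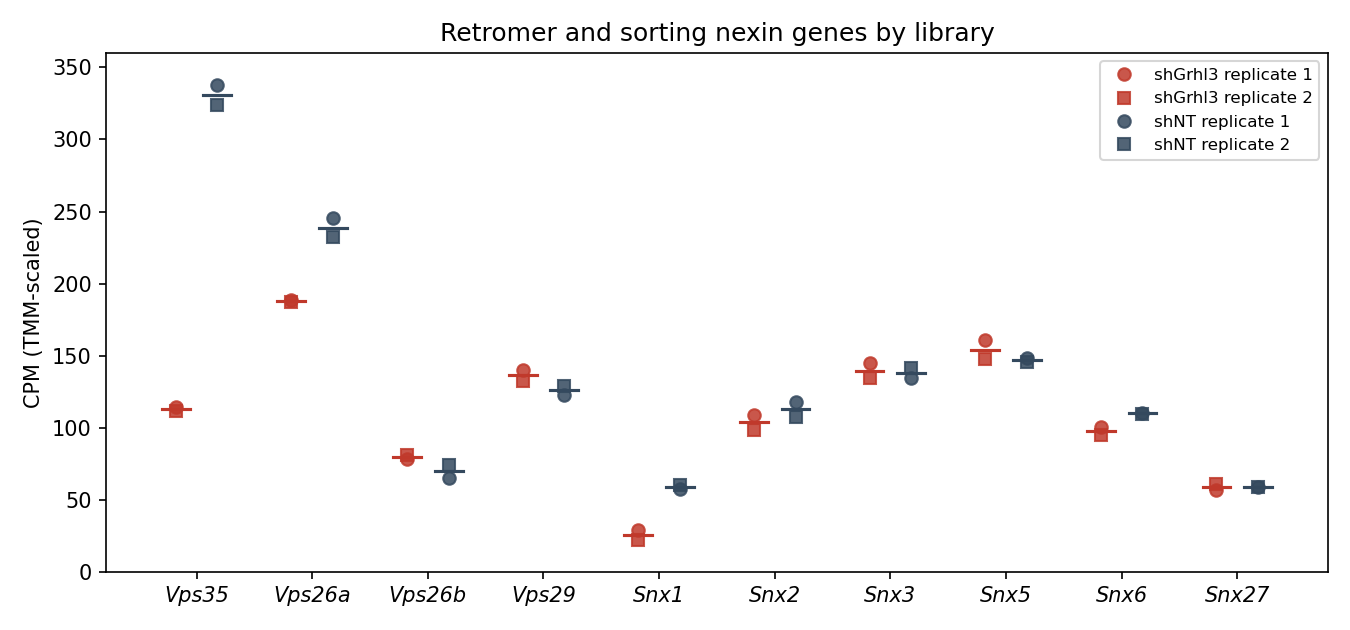
CPM of the 10 genes (horizontal axis) in each library, with shGrhl3 in red and shNT in blue. Circles are replicate 1, squares are replicate 2 and bars are group means. The groups are widely separated for Vps35, separated by less for Vps26a and Snx1, and close together for the other genes. On this linear axis the gap of Snx1 (means 25.5 CPM in shGrhl3 and 58.8 CPM in shNT) looks small because its level is low. CPM is not divided by gene length, so heights are read within a gene only.

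The arms and the third subunit of the trimer did not share the size of the Vps35 difference. Vps26a, which encodes the widely expressed arm (chromosome 10, 62454843 to 62486805), had 189 and 187 CPM in shGrhl3 against 246 and 232 CPM in shNT. Both shGrhl3 values lay below both shNT values. Vps26a fell to 188 ± 1.30 CPM in shGrhl3, against 239 ± 9.73 CPM in shNT (SD, n = 2 each; log2 fold change -0.35, SE 0.081, 95% interval -0.52 to -0.18, adjusted p = 0.00181 in edgeR's quasi-likelihood test). That interval lies well above the -1.55 of Vps35. Without shNT replicate 1 the Vps26a call was lost, with a log2 fold change of -0.31, and its edgeR adjusted p of 0.0589 was the highest over 13 alternative settings (lowest 0.000641).

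Vps26b, which encodes the alternative arm (chromosome 9, 27004502 to 27030094), had 78.6 and 81.4 CPM in shGrhl3 against 65.4 and 74.5 CPM in shNT. The groups did not overlap, with shGrhl3 on top, but the threshold was not reached (log2 fold change 0.19, SE 0.096, 95% interval -0.0045 to 0.39, edgeR adjusted p = 0.123). Within a library, the Vps26b row held 0.416 and 0.435 counts per Vps26a count in shGrhl3, against 0.266 and 0.321 in shNT. That ratio was 1.45 times higher in shGrhl3 and needs no scaling between libraries. No test was run on this ratio.

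Vps29, whose product caps the other end of VPS35 (chromosome 5, 122354328 to 122364984), had 139.9 and 133 CPM in shGrhl3 against 123 and 129 CPM in shNT. The shGrhl3 libraries were slightly higher without overlap, and the difference did not pass (log2 fold change 0.12, SE 0.086, 95% interval -0.063 to 0.29, edgeR adjusted p = 0.324). Vps35 thus took 22.0% and 21.8% of the counts of the 4 trimer rows in shGrhl3, against 43.8% and 42.7% in shNT. The share of each other row was larger in shGrhl3 than in shNT, as shares of a fixed whole must add up, so only the change in balance is read from them.

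**Figure D2:**
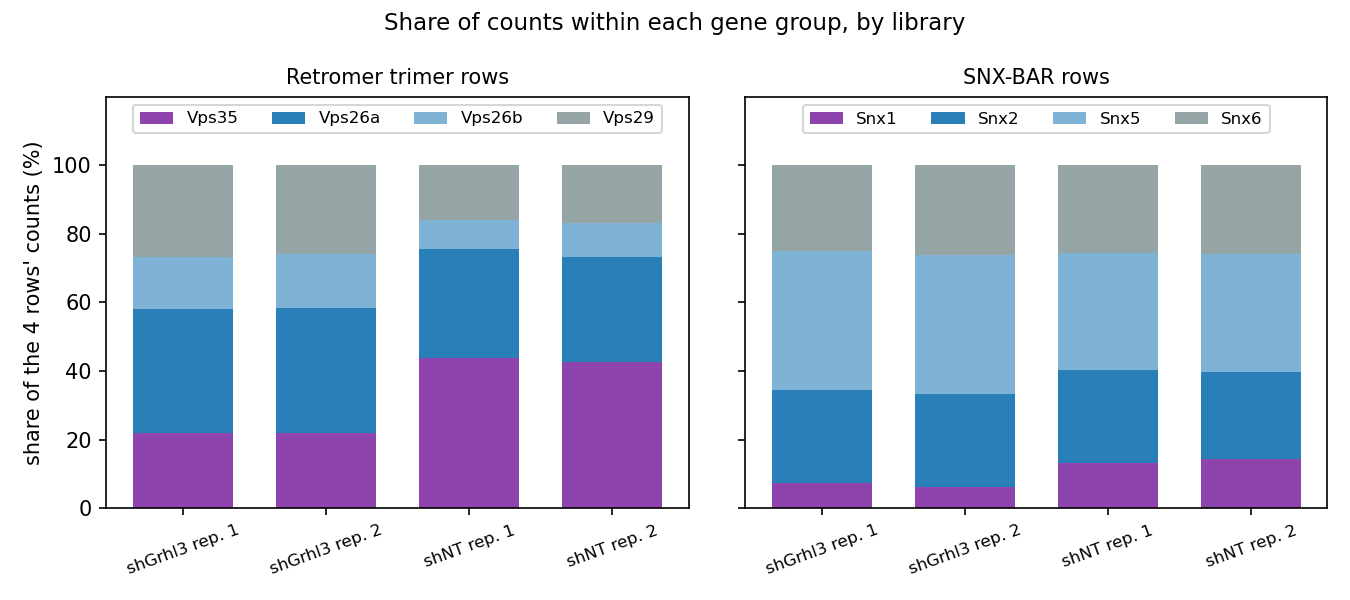
Share of counts (%) within the 4 trimer rows (left) and the 4 SNX-BAR rows (right), 1 bar per library, shGrhl3 before shNT. Vps35 holds 21.8% to 22.0% of its group in shGrhl3 and 42.7% to 43.8% in shNT, and Snx1 holds 6.07% to 7.26% in shGrhl3 and 13.2% to 14.3% in shNT. Counts are not divided by gene length.

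Among the BAR-domain sorting nexins, Snx1 fell and its closest relative Snx2 did not pass the test. Snx1 (chromosome 9, 66088127 to 66124886) had 29.0 and 22.1 CPM in shGrhl3 against 57.2 and 60.5 CPM in shNT. Both shGrhl3 libraries lay below both shNT libraries, and they differed more between themselves than the shNT libraries did. Snx1 fell to 25.5 ± 4.89 CPM in shGrhl3, against 58.8 ± 2.29 CPM in shNT (SD, n = 2 each; log2 fold change -1.20, SE 0.12, 95% interval -1.45 to -0.95, adjusted p = 7.27e-08 in edgeR's quasi-likelihood test). The call held without each library in turn, with log2 fold changes of -1.41 without shGrhl3 replicate 1 and -1.001 without shGrhl3 replicate 2. Of all genes tested, 3.82% had a log2 fold change as low as that of Snx1 or lower.

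Snx2 (chromosome 18, 53176292 to 53220866), which can replace Snx1 in the dimer, had 109 and 98.8 CPM in shGrhl3 against 118 and 108 CPM in shNT. The groups overlapped, with a log2 fold change of -0.12 (SE 0.091, 95% interval -0.31 to 0.071, edgeR adjusted p = 0.341). Snx1 counts per Snx2 count were 0.266 and 0.223 in shGrhl3 against 0.485 and 0.562 in shNT, so the balance between the 2 rows was 0.467 times that of shNT.

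Snx5 and Snx6 encode the cargo-binding side of the dimer. Snx5 (chromosome 2, 144250123 to 144270902) had 161 and 148 CPM in shGrhl3 against 148 and 145 CPM in shNT, with overlapping libraries (log2 fold change 0.069, SE 0.085, 95% interval -0.11 to 0.25, edgeR adjusted p = 0.575). Snx6 (chromosome 12, 54746339 to 54795749) had 100.4 and 94.9 CPM in shGrhl3 against 111 and 109.9 CPM in shNT. Its groups did not overlap, with shGrhl3 below, yet it did not pass (log2 fold change -0.17, SE 0.088, 95% interval -0.36 to 0.0073, edgeR adjusted p = 0.131).

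The cargo adaptors were the members closest to equal. Snx3, whose product brings the Wnt carrier WLS to retromer (chromosome 10, 42502054 to 42535369), had 145 and 134 CPM in shGrhl3 against 135 and 141 CPM in shNT (log2 fold change 0.017, SE 0.086, 95% interval -0.16 to 0.20, edgeR adjusted p = 0.907). Snx27, whose PDZ domain binds receptor tails (chromosome 3, 94497542 to 94582736), had 56.9 and 60.9 CPM in shGrhl3 against 59.1 and 58.8 CPM in shNT (log2 fold change -0.00068, SE 0.097, 95% interval -0.20 to 0.20, edgeR adjusted p = 0.997). The libraries of the groups overlapped for both genes, and the sign of both values changed under other settings. For all 7 partners that did not pass, the 95% intervals ran from -0.36 to 0.39 in all, a range that leaves room for small differences but not for one of the size seen in Vps35 or Snx1.

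**Figure D3:**
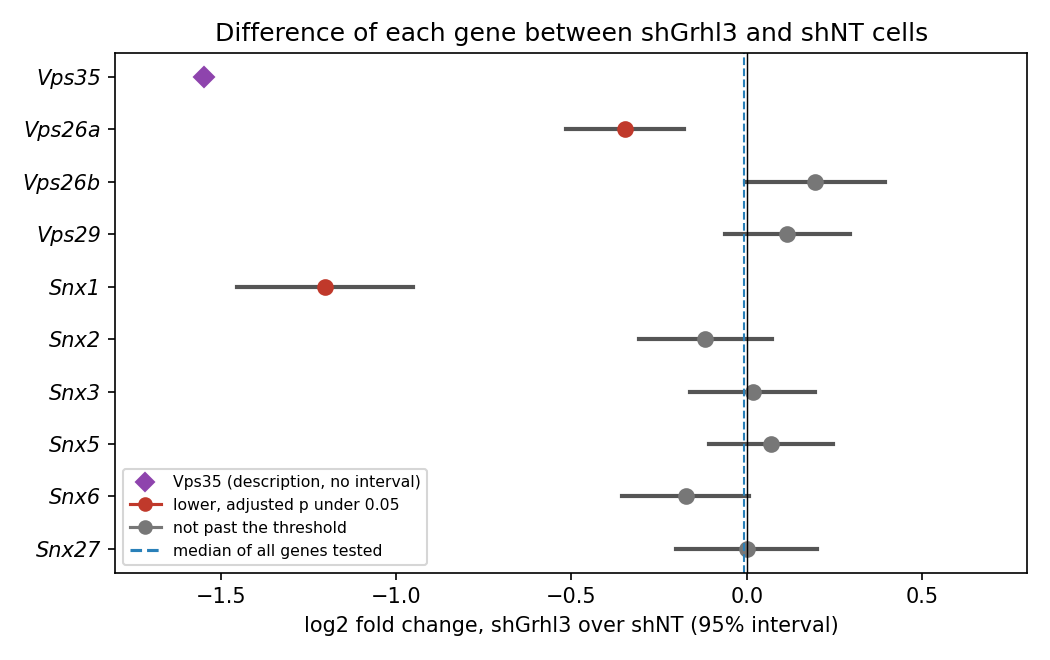
Log2 fold change of shGrhl3 over shNT for the 10 genes (1 row each), with 95% intervals from edgeR for the 9 partners. Vps35 (diamond, -1.55) is drawn without an interval. Snx1 lies at -1.20 and Vps26a at -0.35, and the intervals of the other 7 genes cross 0. The dashed line is the median of all genes tested (-0.0093).

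Ratios within a library show the same imbalance without any scaling. Vps35 counts per Vps26a count were 0.607 and 0.598 in shGrhl3 against 1.37 and 1.40 in shNT, and per Vps29 count 0.820 and 0.842 in shGrhl3 against 2.75 and 2.51 in shNT. Per Snx1 count they were 3.96 and 5.07 in shGrhl3 against 5.90 and 5.36 in shNT. The change in the Vps35 ratio (shGrhl3 over shNT) was 0.801 against Snx1, 0.435 against Vps26a and 0.298 to 0.386 against the other 7 partners. Snx1 was thus the partner whose row came nearest to keeping pace with Vps35. Each ratio contains Vps35 and is given as a description.

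Promoter sequence is shown for the 2 partners that fell and for Vps26b, the paralog of Vps26a. The RefSeq promoter table (GRCm38.p6, 250 bases before to 50 after a gene start) held 8 windows for 7 of the 10 members, and Vps35, Snx2 and Snx27 are not among them. Each sequence is the 250 bases before the annotated start, 5′ to 3′ on the gene's minus strand, at chr9:66124887-66125136 (Snx1), chr10:62486806-62487055 (Vps26a) and chr9:27030095-27030344 (Vps26b). Capitals mark GGGCGG or its complement CCGCCC (GC box), CACGTG (E-box core) and AACCGG or its complement CCGGTT (core of the site that Grainyhead-like factors bind).
Snx1: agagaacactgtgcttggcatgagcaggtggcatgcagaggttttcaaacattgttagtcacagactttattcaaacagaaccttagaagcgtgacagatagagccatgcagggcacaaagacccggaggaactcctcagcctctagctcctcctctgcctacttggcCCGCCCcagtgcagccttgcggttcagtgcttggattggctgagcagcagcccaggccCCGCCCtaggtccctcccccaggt
Vps26a: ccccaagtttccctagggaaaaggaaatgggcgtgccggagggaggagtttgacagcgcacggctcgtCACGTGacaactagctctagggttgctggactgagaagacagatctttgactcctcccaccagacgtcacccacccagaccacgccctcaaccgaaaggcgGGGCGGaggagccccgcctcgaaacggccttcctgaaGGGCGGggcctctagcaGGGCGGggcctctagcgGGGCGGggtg
Vps26b: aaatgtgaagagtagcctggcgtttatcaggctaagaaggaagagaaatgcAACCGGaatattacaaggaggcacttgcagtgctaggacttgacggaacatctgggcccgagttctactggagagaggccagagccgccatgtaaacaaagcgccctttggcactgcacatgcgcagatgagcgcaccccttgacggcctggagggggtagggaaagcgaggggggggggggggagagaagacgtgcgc
Both strands were searched. The Grainyhead-like core was in 1 of the 8 member windows, that of Vps26b, and in 6.83% of all 32851 windows. The E-box core was in 3 member windows, belonging to Vps26a and Snx5, and in 7.15% of all windows. The GC box was in 5 member windows, belonging to Vps26a, Vps29, Snx1 and Snx6, and in 35.7% of all windows. Of the 3 motifs searched, only the GC box, which many promoters hold, was thus in the upstream stretches of both Snx1 and Vps26a. No other letters were compared between them. A match is not a bound site, and these letters say nothing of what lies outside the windows.

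Other genes of the same transport routes moved in both directions. In 9 further lists of endosomal sorting genes, 108 genes in all and 105 tested, 28 (26.7%) were lower, 15 (14.3%) were higher and 62 did not pass, beside 17.9% and 17.1% of all genes tested. Among the 4500 genes with a mean of at least 50 CPM, a level that many listed genes reach, 24.5% were lower and 24.4% were higher. The median log2 fold change of the 105 tested list genes was -0.064, against -0.0093 over all genes. The number lower was 16 without shNT replicate 1, and the number higher was 8 when either shNT library was left out. No set test was run on these lists. Each list below holds 5 to 22 tested genes, and its counts are read beside these shares of all genes.

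**Figure D4:**
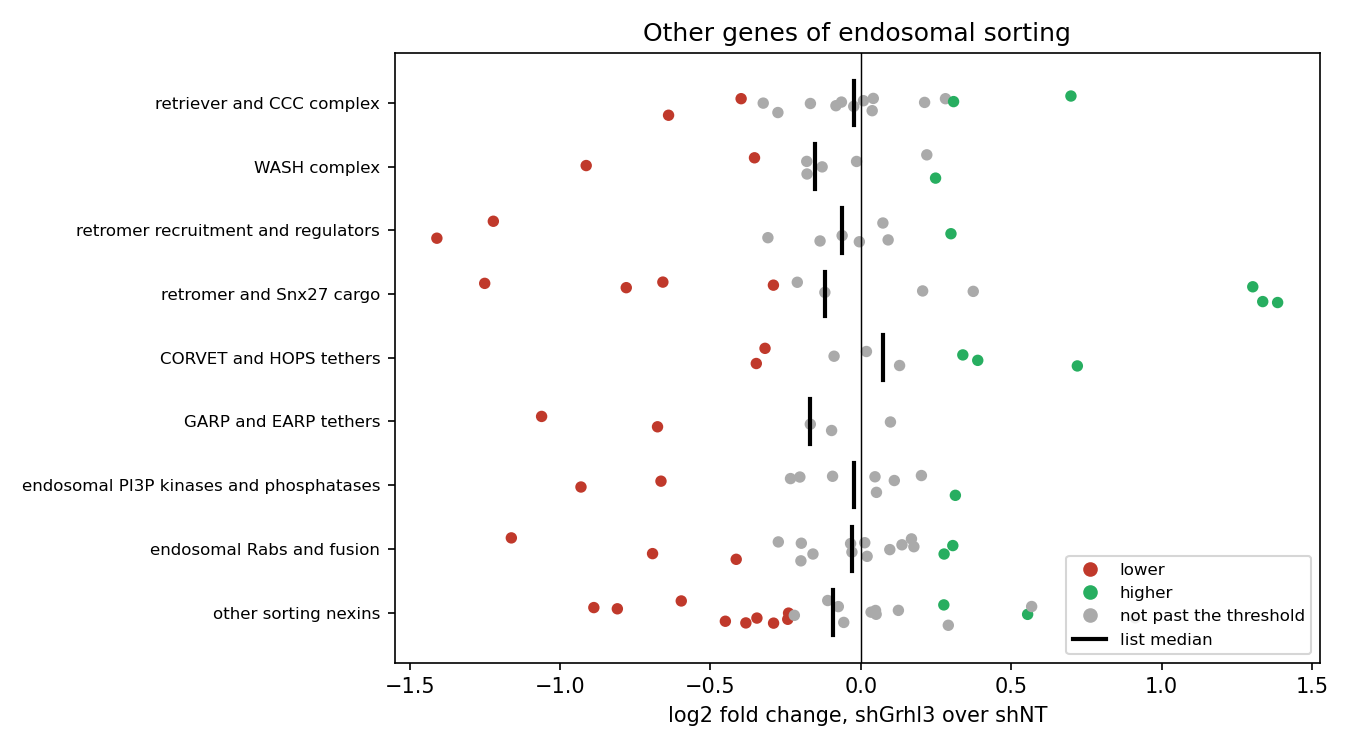
Log2 fold change of shGrhl3 over shNT for each tested gene of 9 other endosomal sorting lists (1 point per gene, spread vertically for legibility), with the list median as a black bar. Red points passed as lower and green points as higher. List medians lie between -0.17 and 0.074, while single genes reach -1.41 (Rab29) and 1.39 (Slc2a1).

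Genes of proteins carried by retromer or by Snx27 with retromer gave calls in both directions. Of 11 cargo genes tested, 4 (36.4%) were lower, 3 (27.3%) were higher and 4 did not pass. Among all genes tested, 17.9% were lower and 17.1% higher. Sort1, encoding the Golgi sorting receptor sortilin, had 98.5 and 101 CPM in shGrhl3 against 251 and 225 CPM in shNT (log2 fold change -1.25, SE 0.087, edgeR adjusted p = 1.84e-10). Igf2r, the cation-independent mannose 6-phosphate receptor that delivers lysosomal enzymes, had 231 and 280.4 CPM in shGrhl3 against 432 and 446 CPM in shNT (log2 fold change -0.78, SE 0.090, edgeR adjusted p = 4.78e-07). Neither gene's groups overlapped, and both were lower in shGrhl3.

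Cargo of the surface route included 2 large rises. Slc2a1, the glucose transporter GLUT1, had 230.3 and 260 CPM in shGrhl3 against 91.6 and 96.0 CPM in shNT (log2 fold change 1.39, SE 0.089, edgeR adjusted p = 5.57e-11). Tfrc, the transferrin receptor for iron uptake, had 116 and 125 CPM in shGrhl3 against 50.3 and 47.4 CPM in shNT (log2 fold change 1.30, SE 0.094, edgeR adjusted p = 3.07e-10). The other cargo calls, named although outside the naming rule because there are few of them, were the rise of Sorl1 (log2 fold change 1.34) and the falls of Wls and Pth1r (-0.29 and -0.66). Without shNT replicate 1, 2 cargo genes were lower. M6pr, the second mannose 6-phosphate receptor, averaged 257 ± 13.5 CPM in shGrhl3 and 279 ± 9.52 CPM in shNT (SD, n = 2 each) and did not pass.

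Of 9 tested genes that recruit or regulate retromer, 2 were lower, 1 was higher and 6 did not pass. These are 22.2% and 11.1%, beside 17.9% and 17.1% of all genes tested. Rab29 had 9.23 and 9.74 CPM in shGrhl3 against 23.9 and 26.6 CPM in shNT (log2 fold change -1.41, SE 0.14, edgeR adjusted p = 5.56e-08), and Rab32 had 11.3 and 9.64 CPM in shGrhl3 against 24.0 and 24.9 CPM in shNT (log2 fold change -1.22, SE 0.14, edgeR adjusted p = 4.48e-07). Both encode small GTPases of endolysosomal membranes, and both stood lower in each shGrhl3 library than in any shNT library. Ankrd27, which encodes the RAB32 and VPS29 binding protein VARP, was higher (log2 fold change 0.30, edgeR adjusted p = 0.0247), a call lost with DESeq2 and without each of shGrhl3 replicate 2, shNT replicate 1 and shNT replicate 2. Rab7, whose product recruits the trimer to late endosomes, averaged 494 ± 28.6 CPM in shGrhl3 and 469 ± 1.12 CPM in shNT (SD, n = 2 each) and did not pass.

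The WASH complex, which builds actin on retromer tubules, had 2 of 8 tested genes lower and 1 higher, beside 17.9% and 17.1% of all genes. Washc2, encoding the subunit whose tail binds VPS35, had 119 and 119 CPM in shGrhl3 against 151 and 153 CPM in shNT (log2 fold change -0.35, SE 0.084, edgeR adjusted p = 0.00208). Capza1, encoding a capping protein subunit, fell further, to 49.0 ± 4.49 CPM in shGrhl3 against 92.3 ± 5.27 CPM in shNT (SD, n = 2 each; log2 fold change -0.91, edgeR adjusted p = 1.67e-07). Capzb, encoding the other capping subunit, was higher (log2 fold change 0.25, edgeR adjusted p = 0.0237), which was lost without each of shGrhl3 replicate 1, shNT replicate 1 and shNT replicate 2. The call was also lost with a replicate block. Capza2, the paralog of Capza1, averaged 226 ± 12.5 CPM in shGrhl3 and 228 ± 5.10 CPM in shNT (SD, n = 2 each) and did not pass.

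Retriever and its CCC partner complex, a related recycling route, had 2 of 15 tested genes lower and 2 higher. This is 13.3% each way, beside 17.9% and 17.1% of all genes tested. Commd9 had the largest rise (log2 fold change 0.70, SE 0.14, edgeR adjusted p = 0.000355), and Commd3 rose too (log2 fold change 0.31, edgeR adjusted p = 0.00958). Dennd10 (log2 fold change -0.64, edgeR adjusted p = 0.000899) and Ccdc93 (log2 fold change -0.40, edgeR adjusted p = 0.00388) fell. The 2 lower calls were lost without shNT replicate 1, and that of Commd3 without shNT replicate 2.

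Tethers that receive endosomal carriers gave calls in both directions, as did all genes tested (17.9% lower and 17.1% higher). Of 5 GARP and EARP genes, 2 were lower and 0 higher: Vps54, specific to GARP at the Golgi, had 32.8 and 32.2 CPM in shGrhl3 against 69.8 and 65.7 CPM in shNT (log2 fold change -1.06, SE 0.10, edgeR adjusted p = 2.83e-08). Vps50, specific to EARP at recycling endosomes, had 40.5 and 41.8 CPM in shGrhl3 against 66.4 and 65.0 CPM in shNT (log2 fold change -0.68, SE 0.099, edgeR adjusted p = 1.05e-05). The subunits that the 2 complexes share did not pass. Of 8 CORVET and HOPS genes, 3 were higher and 2 lower, led by the HOPS gene Vps39 (48.8 ± 2.77 CPM in shGrhl3 and 29.6 ± 1.19 CPM in shNT, SD, n = 2 each; log2 fold change 0.72, edgeR adjusted p = 1.62e-05). Vps33a and Vps8 were also higher (log2 fold changes 0.39 and 0.34), and Vps11 and Vps16 lower (-0.32 and -0.35). Without shNT replicate 1 only 1 of these genes was higher and 0 lower, and 0 were lower without each of shGrhl3 replicate 2 and shNT replicate 2. With DESeq2 1 was lower.

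Of 10 phosphoinositide enzymes and their subunits, 2 were lower, 1 was higher and 7 did not pass. The shares were 20% and 10%, beside 17.9% and 17.1% of all genes tested. Pikfyve, the kinase that converts the endosomal lipid PI3P further, fell to 43.9 ± 1.17 CPM in shGrhl3, against 83.7 ± 4.95 CPM in shNT (log2 fold change -0.93, edgeR adjusted p = 9.86e-08). Becn1, a subunit of the kinase complex that makes PI3P, fell to 77.7 ± 6.63 CPM in shGrhl3, against 123 ± 0.413 CPM in shNT (SD, n = 2 each; log2 fold change -0.66, edgeR adjusted p = 4.71e-06). The rise of Mtm1 (log2 fold change 0.31, edgeR adjusted p = 0.0470) was lost without each of the 4 libraries in turn, with DESeq2, with no filter on low counts and with a replicate block.

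Of 17 endosomal Rab and fusion genes, 3 were lower, 2 were higher and 12 did not pass. That is 17.6% and 11.8%, beside 17.9% and 17.1% of all genes tested. Rab10, a GTPase of surface delivery, had 96.4 and 88.6 CPM in shGrhl3 against 206 and 208 CPM in shNT (log2 fold change -1.16, SE 0.086, edgeR adjusted p = 4.89e-10). Rab5b, of early endosomes, had 75.1 and 64.1 CPM in shGrhl3 against 110.2 and 115 CPM in shNT (log2 fold change -0.69, SE 0.096, edgeR adjusted p = 4.97e-06). Both were lower in each shGrhl3 library. Rab9 fell (log2 fold change -0.41) and the fusion genes Stx7 and Stx12 rose (0.31 and 0.28). Without shNT replicate 2, 0 of the 17 were higher and 2 lower, and without shNT replicate 1, 1 was higher.

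Among the other sorting nexins, 9 of 22 tested were lower, 2 were higher and 11 did not pass, with a median log2 fold change of -0.092. Shares were 40.9% lower and 9.09% higher, beside 17.9% and 17.1% of all genes tested. Snx30 had 68.2 and 79.1 CPM in shGrhl3 against 140.4 and 132 CPM in shNT (log2 fold change -0.89, SE 0.094, edgeR adjusted p = 1.19e-07), and Snx13 fell by 0.45 and Snx24 by 0.60 on the log2 scale. Snx19 had 114 and 115 CPM in shGrhl3 against 77.8 and 77.8 CPM in shNT (log2 fold change 0.55, SE 0.088, edgeR adjusted p = 3.08e-05). The number lower depended on the libraries, with 3 lower without shNT replicate 1, 6 without shNT replicate 2 and 6 without shGrhl3 replicate 2. With DESeq2 and with a replicate block it was 6. The number higher was 1 with DESeq2, with a replicate block and without each of shGrhl3 replicate 1, shNT replicate 1 and shNT replicate 2.

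On the chromosome, the tested genes beside Vps35 did not share its direction as a group. Orc6, a subunit of the origin recognition complex that licenses DNA replication (85299632 to 85308279), begins 0.1 kb past the Vps35 interval and had 33.0 and 31.0 CPM in shGrhl3 against 17.4 and 16.1 CPM in shNT. Orc6 was thus 1.91-fold higher in shGrhl3 (log2 fold change 0.94, SE 0.12, edgeR adjusted p = 2.85e-06). The next genes on that side were Mylk3, which did not pass (log2 fold change 1.26, SE 0.50, edgeR adjusted p = 0.0561), and 4921524J17Rik, which was lower (log2 fold change -0.69, SE 0.13, edgeR adjusted p = 0.000146). Mylk3 passed with library sizes left unscaled and without shGrhl3 replicate 1. The 3 nearest tested genes on the other side, Zfp791, Man2b1 and Wdr83os, lay 137.3 to 178.0 kb away and did not pass (edgeR adjusted p from 0.202 to 0.637).

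Among the 6 genes whose pattern over the 4 libraries lay closest to that of Vps35 were Ackr3, Zhx1, Tmed5, Serpinb9 and Ammecr1, of 6018 candidates with a mean of at least 5 on the log2 CPM scale. Likeness was the Euclidean distance between log2 CPM values centred on each gene's mean, and for these 5 genes it ran from 0.070 for Ackr3 to 0.11 for Ammecr1. Ackr3, which encodes an atypical chemokine receptor, had 19.0 and 19.6 CPM in shGrhl3 against 56.8 and 53.9 CPM in shNT. Over the 5 genes, log2 fold changes ran from -1.61 to -1.47, and since they were chosen for likeness to Vps35 these values are a description. Snx1 lay at a distance of 0.43, with 61 candidates nearer, and Vps26a at 1.20, with 1035 nearer. The other partners lay between 1.37 and 1.75, with 1792 or more candidates nearer.

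**Figure D5:**
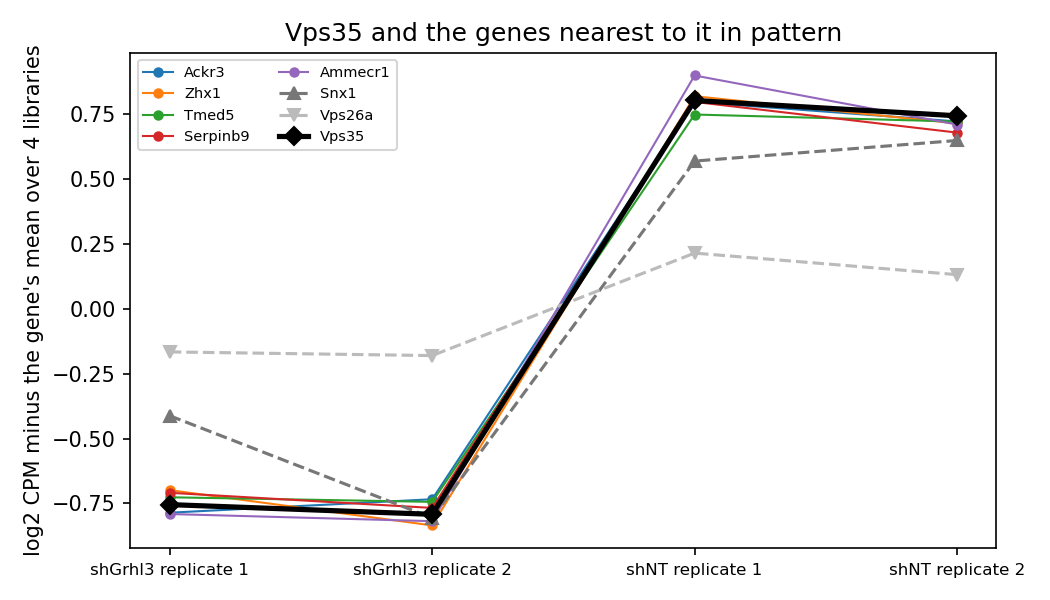
Log2 CPM minus the gene's own mean, by library, for Vps35 (black diamonds), 5 of the 6 genes nearest to it in pattern (coloured lines) and the partners Snx1 and Vps26a (dashed). The 5 genes nearly coincide with Vps35 by construction. Snx1 follows with a wider gap between the shGrhl3 libraries, and Vps26a shows a much smaller step between the groups.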

How the data were processed

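The authors deposited a table of raw counts per gene with 1 column for each of 4 RNA-seq libraries. The submitters' processing notes list mm10, ChIPseeker, MACS2, Bowtie2 2.2.6, HISAT2 2.0.1 and cutadapt 1.9.1, without role or order. The counting program, annotation, strand setting and handling of multi-mapping reads were not given in the sources used here, so reads of paralogs or overlapping genes may be split or merged. The columns shGrhl1 and shGrhl2 were read as replicates 1 and 2 of shGrhl3, the only target the labels name. Of 55359 rows, 1438 name no gene, held 0.00432% to 0.00872% of counts and were left out.

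Within each group the libraries differed by more than sampling noise (chi-square per degree of freedom 8.66 for shGrhl3 and 14.1 for shNT). The Rn18s row, at 0.573% and 2.00% of counts in the shNT libraries, is included and weighs on the shNT value. The 2 values therefore do not compare the spread of a typical gene, and none was computed without that row. Tests used edgeR 4.0.16 in R 4.3.3: filterByExpr with a minimum count of 10, TMM factors and the robust quasi-likelihood test of shGrhl3 against shNT with no covariate, two-sided, with Benjamini-Hochberg adjustment over 15324 genes and a threshold of 0.05. The SE comes from the F statistic. On simulated counts for this comparison (15324 genes), 58% of genes changed by 0.5 and 94% of those changed by 1 on the log2 scale were called, with 9 false calls. The simulation changed 50 genes at each size, far fewer than were called in the data, which makes its threshold stricter. Alternatives used DESeq2 1.42.0, limma-voom (limma 3.58.1), other scalings and filters, a replicate block and each library left out.

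Members and lists were chosen with earlier results of these data known. Named genes are the 10 members, up to 4 genes past the threshold with the lowest p in each list, the 6 nearest patterns (leaving out Gm and Rik symbols; 1 of the 6 is not reported here), 3 tested neighbours on each side of Vps35, and Grhl3. Other named genes were chosen after their values were seen. Positions and promoters are RefSeq's on GRCm38.p6, the assembly behind mm10. Gene lengths were not used, so levels are compared within a gene.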

Additional observations from a re-analysis of the deposited data

How the results depend on the processing

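Each value was recomputed under 13 alternatives. Snx1 stayed lower and past the threshold in all 13 (adjusted p at most 3.54e-07), and the log2 fold change of Vps35 ran from -1.57 to -1.51. Vps26a kept its direction and lost the threshold only without shNT replicate 1. The number of partners lower was 1 to 2 with a library left out and 2 under every other alternative, and the number higher was 0 in all 13. The calls over all genes numbered 5368, with 3878 to 5057 when a library was left out and 4234 to 5433 otherwise. The genes called lower in the 9 other lists numbered 16 to 28 with a library left out, and those called higher 8 to 14. The log2 fold change of Snx3 ran from -0.039 to 0.091 with a library left out and was negative without shGrhl3 replicate 1 (-0.039) and without shNT replicate 1 (-0.019). That of Snx27 ran from -0.030 to 0.049 with a library left out and was positive without shGrhl3 replicate 1 (0.049) and without shNT replicate 1 (0.00163). It was also positive with RLE factors (0.00502), library size only (0.024), DESeq2 (0.00506), no filter on low counts (0.00348) and rRNA-related rows left out (0.00982). That of Wdr83os ran from -0.22 to 0.056 with a library left out and was positive only without shGrhl3 replicate 2. The causes were not tested. Same-numbered replicates did not deviate together (r = -0.0605 across genes), so the numbers were not taken as pairs. With the replicate block, 4889 genes passed, 2 partners were lower, 25 genes of the other lists were lower and 12 higher. Fits with a library left out assume that the lone library varies like the other group. With 2 libraries a group, differences of about 0.5 on the log2 scale are often missed.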
